A study of Mus musculus with 41 samples.

Results

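The genes described here are 33 immediate early, heat shock and feedback genes, chosen by name and looked up by symbol in a table of 24015 genes, where all 33 were found. They were followed library by library in microglia, which are the macrophages that live in the brain. The cells came from the cerebellum of mice and were sorted by CD11b and Tmem119 on their surface. Niemann-Pick type C (NPC) mice of the strain BALB/cNctr-Npc1m1N/J, which carry the m1N allele of the lysosomal cholesterol transporter gene Npc1, gave 4 libraries each at 1, 3 and 6 weeks of age and 3 at 9 weeks, all untreated. Untreated wild-type (WT) mice of the strain balb/c gave 4 libraries at each of these 4 ages. A treatment arm set 5 NPC mice given PLX5622 against 5 NPC mice labelled control, all of the same strain and aged 9 weeks. PLX5622 blocks Csf1r, a receptor kinase whose signal keeps microglia alive. The labels count mice as the replicates and give neither the dose of PLX5622 nor what the control mice received. The strain carries its allele in every tissue, so NPC microglia were mutant cells from a mutant brain, and no group held mutant microglia in a WT brain.

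Values are normalized counts, which are gene counts divided by 1 size factor per library, and they are not corrected for gene length, so levels are compared between libraries and not between genes. Of the 33 genes, 31 reached 10 normalized counts in at least 3 of the 31 time course libraries and were tested there. Fosb and Nr4a3, which stayed near 0 in the time course, were not, and Fosb alone of the pair passed in the 10 libraries of the treatment arm, where 32 genes were tested.

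Immediate early genes are transcribed within minutes of a stimulus by factors that already wait in the cell, without new protein. Calcium and kinase signals reach them through factors such as CREB and serum response factor, and inflammatory signals through NF-kB. Many encode transcription factors of the AP-1, Egr, Klf and Nr4a families, and others encode proteins that end the response: Dusp1 inactivates MAP kinases, Zfp36 destabilises cytokine mRNAs and Nfkbia holds NF-kB in the cytoplasm. Heat shock genes answer misfolded protein through the factor Hsf1. In microglia, genes of both kinds are known to respond to the taking apart of the tissue as well as to stimuli in the living brain. Per the labels, all steps were done at 4 °C, with perfusion, chopping, Dounce homogenisation in a medium with DNase I, removal of myelin on Percoll and sorting. The labels name no digestion of the tissue with a protease and no inhibitor of transcription, and the day on which each library was prepared is not given in the sources used here.

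The libraries held 23159093 to 40509603 recovered reads. Npc1 itself ranged from 291 to 787 normalized counts over the 25 NPC libraries, against 2606 to 7386 over the 16 WT libraries, with no overlap. The sorting markers and microglial receptors were high throughout. In NPC libraries the lowest values were 52430.3 for Tmem119, 18335 for Itgam, which encodes CD11b, and 363926 for Csf1r, against lowest values of 84823, 26554 and 363896 in WT libraries.

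The main feature of these genes was not a difference between 2 groups but a set of single libraries. In 6 libraries, all from NPC mice of 9 weeks, Fos, Jun, Junb, Egr1, Ier2, Dusp1 and Zfp36 stood far above every other library. The 6 were PLX5622 replicates 1, 2 and 3, control replicates 1 and 2, and NPC 9w replicate C. Other members were raised by less, in some of the 6 or not at all. Counting genes at or above 4 times their own median over the 41 libraries, with 32 genes counted, these 6 held 13, 11 and 13 (PLX5622), 14 and 12 (control) and 7 (NPC 9w replicate C). The other 35 libraries held 0 to 2 each. Over 13743 genes, the share at or above 4 times the median was 3.31% to 6.18% in these 6 libraries. It was 0.990% to 6.90% in the other 35. The 6 libraries were picked out by these values, so they are described here and not compared as a group.

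Fos, the founding member of the AP-1 family, which pairs with Jun proteins, was at 14876, 8747, 14863, 254 and 165 normalized counts in PLX5622 replicates 1 to 5. Control replicates 1 to 5 held 12069.7, 11807, 137, 244 and 219.6, and NPC 9w replicates A, B and C held 340.2, 146 and 3284. The remaining 28 libraries, from WT mice and from NPC mice of 1 to 6 weeks, held 46.5 to 236. The 5 high libraries of the treatment arm and NPC 9w replicate C thus lie far above all others. NPC 9w replicate A lies somewhat above the range of the 28, and replicate B lies within it. Jun, the AP-1 partner of Fos, was at 42605, 30032, 48234, 5881 and 6161 normalized counts in PLX5622 replicates 1 to 5. It was at 57318, 55575, 4243, 4199.8 and 3922 in control replicates 1 to 5, and at 5129, 4508 and 46696 in NPC 9w replicates A, B and C, with 2841 to 6569.9 elsewhere. NPC 9w replicate C lay within the range of the 5 high libraries of the treatment arm for Jun. Junb, a second Jun protein, was at 48359, 29413, 42652, 5890.0 and 3356 normalized counts in PLX5622 replicates 1 to 5. The values were 44310.0, 44999, 5042, 5425 and 4968 in control replicates 1 to 5 and 6209.6, 5284 and 27832 in NPC 9w replicates A, B and C, with 2558 to 6926 elsewhere. For Junb, NPC 9w replicate C lay just under the lowest of those 5, while for Fos it was well below them. Jund, the most constant Jun protein, moved less and was at 9391, 4802, 12190.1, 1996 and 2038 normalized counts in PLX5622 replicates 1 to 5. Among control replicates 1 to 5 the values were 11764, 10203, 2281, 2326 and 2113, and NPC 9w replicates A, B and C held 3464, 2799 and 6899.8, with 1645 to 5769 elsewhere, so that NPC 3w replicate C lay above PLX5622 replicate 2.

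**Figure D1:**
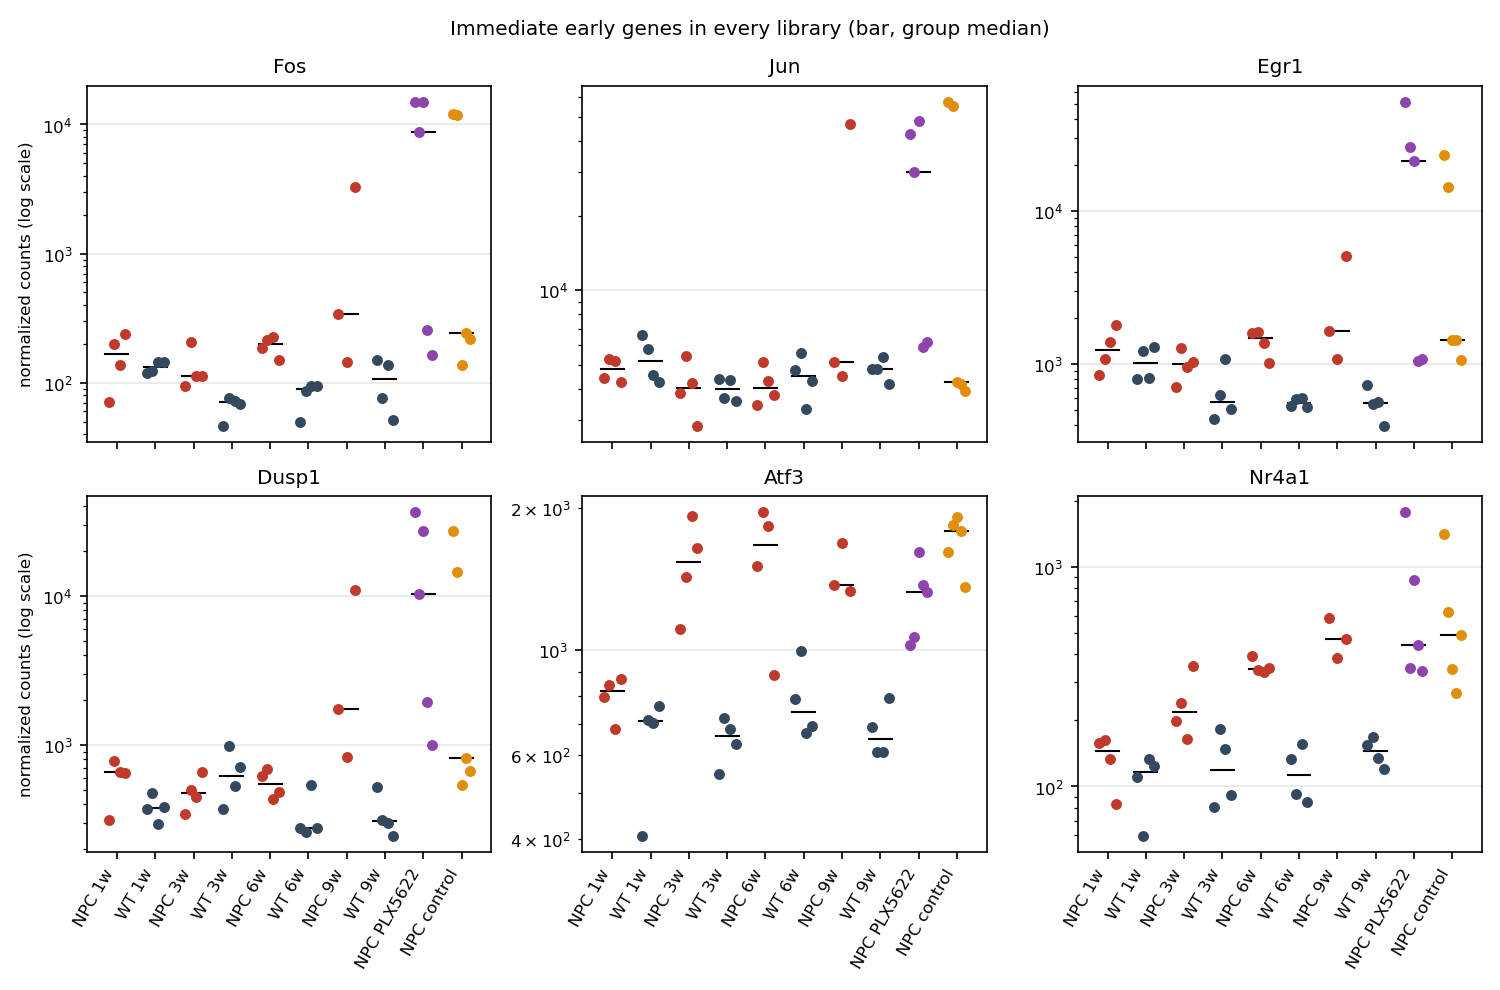
Normalized counts on a log scale (vertical axis) of 6 genes in each of the 41 libraries, by group (horizontal axis), with a bar at each group's median. Fos, Jun, Egr1 and Dusp1 are high in PLX5622 replicates 1, 2 and 3, control replicates 1 and 2 and NPC 9w replicate C, while Atf3 is not and Nr4a1 is high in a part of them.

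Egr1, a zinc finger factor induced by growth factors and activity, was at 51540.2, 26277, 21136, 1054 and 1074 normalized counts in PLX5622 replicates 1 to 5. Control replicates 1 to 5 held 23427, 14328, 1431, 1436 and 1057, and NPC 9w replicates A, B and C held 1657, 1079 and 5089, with 396 to 1810.0 elsewhere. Here NPC 9w replicate C stood above the other 35 libraries but below the 5 high libraries of the treatment arm. Ier2, a nuclear protein among the first transcripts of a growth response, was at 44878, 24902, 34619.5, 2034 and 693 normalized counts in PLX5622 replicates 1 to 5. It was at 27593, 18772, 781, 902 and 610.5 in control replicates 1 to 5, and at 1231, 785 and 11015 in NPC 9w replicates A, B and C, with 317 to 1784 elsewhere. Again the 6 libraries lay above every other one. Dusp1, the MAP kinase phosphatase, was at 36281, 10229.6, 27109, 1928 and 991 normalized counts in PLX5622 replicates 1 to 5. The values were 27241, 14400.5, 534, 818 and 669 in control replicates 1 to 5 and 1737, 824 and 10941 in NPC 9w replicates A, B and C, with 245 to 978 elsewhere. For Dusp1 the same holds, and for both genes PLX5622 replicate 4 came next. Zfp36, the mRNA-destabilising protein tristetraprolin, was at 21044, 17265, 20753, 3122 and 2859.8 normalized counts in PLX5622 replicates 1 to 5. Among control replicates 1 to 5 the values were 29382, 28050.1, 2901, 3466 and 3012, and NPC 9w replicates A, B and C held 3857, 3142 and 21083, with 2055 to 4244 elsewhere. NPC 9w replicate C was within the range of the 5 for Zfp36. Btg2, an antiproliferative gene, was at 23103, 12701, 20653, 4356 and 3179 normalized counts in PLX5622 replicates 1 to 5. Control replicates 1 to 5 held 24584, 18056, 3419, 4164 and 4204, and NPC 9w replicates A, B and C held 4060.4, 4231 and 13945, with 1815 to 10879 elsewhere. Btg2 therefore divided the NPC libraries of 9 weeks in the same way, but its low libraries lay below the WT libraries of 3 to 9 weeks, which held 7508 to 10879.

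Other members did not follow this division. Atf3, a stress-induced AP-1 partner, was at 1026, 1068, 1611, 1374 and 1331 normalized counts in PLX5622 replicates 1 to 5. It was at 1614, 1841, 1916, 1783 and 1359 in control replicates 1 to 5, and at 1373, 1687 and 1331 in NPC 9w replicates A, B and C. Its high and low libraries were not those of Fos. Egr2, the sister gene of Egr1, was at 163, 77.2, 64.1, 56.0 and 59.1 normalized counts in PLX5622 replicates 1 to 5. The values were 167, 202, 262, 187 and 303 in control replicates 1 to 5 and 203, 185 and 132 in NPC 9w replicates A, B and C. It was low in PLX5622 replicates 2 and 3, which were among the highest for Egr1. Tnfaip3, the A20 inhibitor of NF-kB, was at 3624, 2189, 2787, 5816 and 3362 normalized counts in PLX5622 replicates 1 to 5. Among control replicates 1 to 5 the values were 5861, 3810.4, 3258, 4557 and 3906, and NPC 9w replicates A, B and C held 4498, 4156 and 3538. Libraries high and low in Fos were interspersed. Hsp90aa1, the inducible Hsp90, was at 1759, 2635, 2196, 2198 and 1819 normalized counts in PLX5622 replicates 1 to 5. Control replicates 1 to 5 held 1905, 2279, 1845, 1858 and 1748, and NPC 9w replicates A, B and C held 1877, 1845 and 2075. Its values were close together, and the highest and the second lowest of the 13 both came from libraries high in Fos.

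Further members moved by smaller amounts or in some of the 6 libraries. Ier3, a gene of cell survival, was at 6579, 1765, 2331, 581 and 357 normalized counts in PLX5622 replicates 1 to 5. It was at 2451, 2244, 459, 633 and 419.7 in control replicates 1 to 5, and at 500.3, 481 and 1081 in NPC 9w replicates A, B and C. The 6 libraries lay above the other 7, with NPC 9w replicate C the lowest of them. Ier5, a regulator of the heat shock factor, was at 7021, 5169, 6407, 2013 and 2114 normalized counts in PLX5622 replicates 1 to 5. The values were 7105, 7595, 2355, 2587 and 2189.7 in control replicates 1 to 5 and 2448, 2437 and 5205 in NPC 9w replicates A, B and C. Rhob, a small GTPase gene, was at 16209.8, 18174, 23270.4, 6288 and 8509 normalized counts in PLX5622 replicates 1 to 5. Among control replicates 1 to 5 the values were 19088, 19868, 10499, 8399 and 8861, and NPC 9w replicates A, B and C held 6894, 5694 and 17899. Both were highest in the 6 libraries among these 13. Nr4a1, an orphan nuclear receptor, was at 1769.7, 345, 875, 439.7 and 336 normalized counts in PLX5622 replicates 1 to 5. Control replicates 1 to 5 held 1409.6, 624, 343, 267 and 491, and NPC 9w replicates A, B and C held 583, 386 and 469. PLX5622 replicate 1 and control replicate 1 were the highest, while PLX5622 replicate 2 was among the low ones. Nr4a2, its relative, was at 0, 19.5, 74.7, 0.93 and 28.6 normalized counts in PLX5622 replicates 1 to 5. It was at 0, 58.2, 1.77, 10.5 and 17.7 in control replicates 1 to 5, and at 3.34, 28.7 and 20.5 in NPC 9w replicates A, B and C. Fosb, a Fos protein, was at 9.79, 28.8, 20.2, 6.54 and 1.91 normalized counts in PLX5622 replicates 1 to 5. The values were 6.21, 17.8, 0.89, 0.88 and 0.93 in control replicates 1 to 5 and 0, 6.38 and 3.73 in NPC 9w replicates A, B and C. Both stayed at 74.7 normalized counts or below.

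Some other members were highest in part of the 5 high libraries of the treatment arm but did not have all 5 on top. Klf6, Klf4 and Fosl2 had PLX5622 replicates 1, 2 and 3 and control replicate 1 as their 4 highest, and control replicate 2 lower. Socs3 had PLX5622 replicates 1 and 3 and control replicates 1 and 2 as its 4 highest. Nfkbia was highest in PLX5622 replicate 1, control replicate 1 and PLX5622 replicate 3, and Gadd45b in control replicates 2 and 1 and PLX5622 replicate 3. In PLX5622 and in control libraries, Nfkbia ranged over 6983 to 21271 and 6631 to 17700.0 normalized counts, Socs3 over 1477 to 4116 and 1859 to 5336, and Gadd45b over 101 to 296 and 163 to 376. Klf6 ranged over 7429 to 20035 in PLX5622 libraries and 5815 to 13926 in control libraries, Klf4 over 135 to 509.9 and 48.4 to 325, and Fosl2 over 224 to 749 and 123 to 655. In each of these pairs of ranges PLX5622 and control libraries overlap.

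Within the treatment arm, 16 of the 32 genes had the same 5 libraries as their 5 highest: Fos, Jun, Junb, Jund, Maff, Egr1, Ier2, Ier3, Ier5, Btg2, Rhob, Dusp1, Zfp36, Nfkbiz, Hspa1a and Dnajb1. That is 50.0% of the genes, beside 524 of the 12877 genes tested there (4.07%), and no member had these as its 5 lowest, beside 3.01% of all genes. Since Fos picked the 5 libraries, this is a description with no test. Ranked over all genes by the lowest of these 5 libraries over the highest of the other 5, Fos came first with a ratio of 34.4, Egr1 came at rank 3 with 9.98 and Ier2 at rank 5 with 9.23. Dusp1 (5.31), Junb (4.99), Zfp36 (4.98) and Jun (4.87) came at ranks 11, 14, 15 and 16. Dnajb1 was last of the 16 with a ratio of 1.09.

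**Figure D2:**
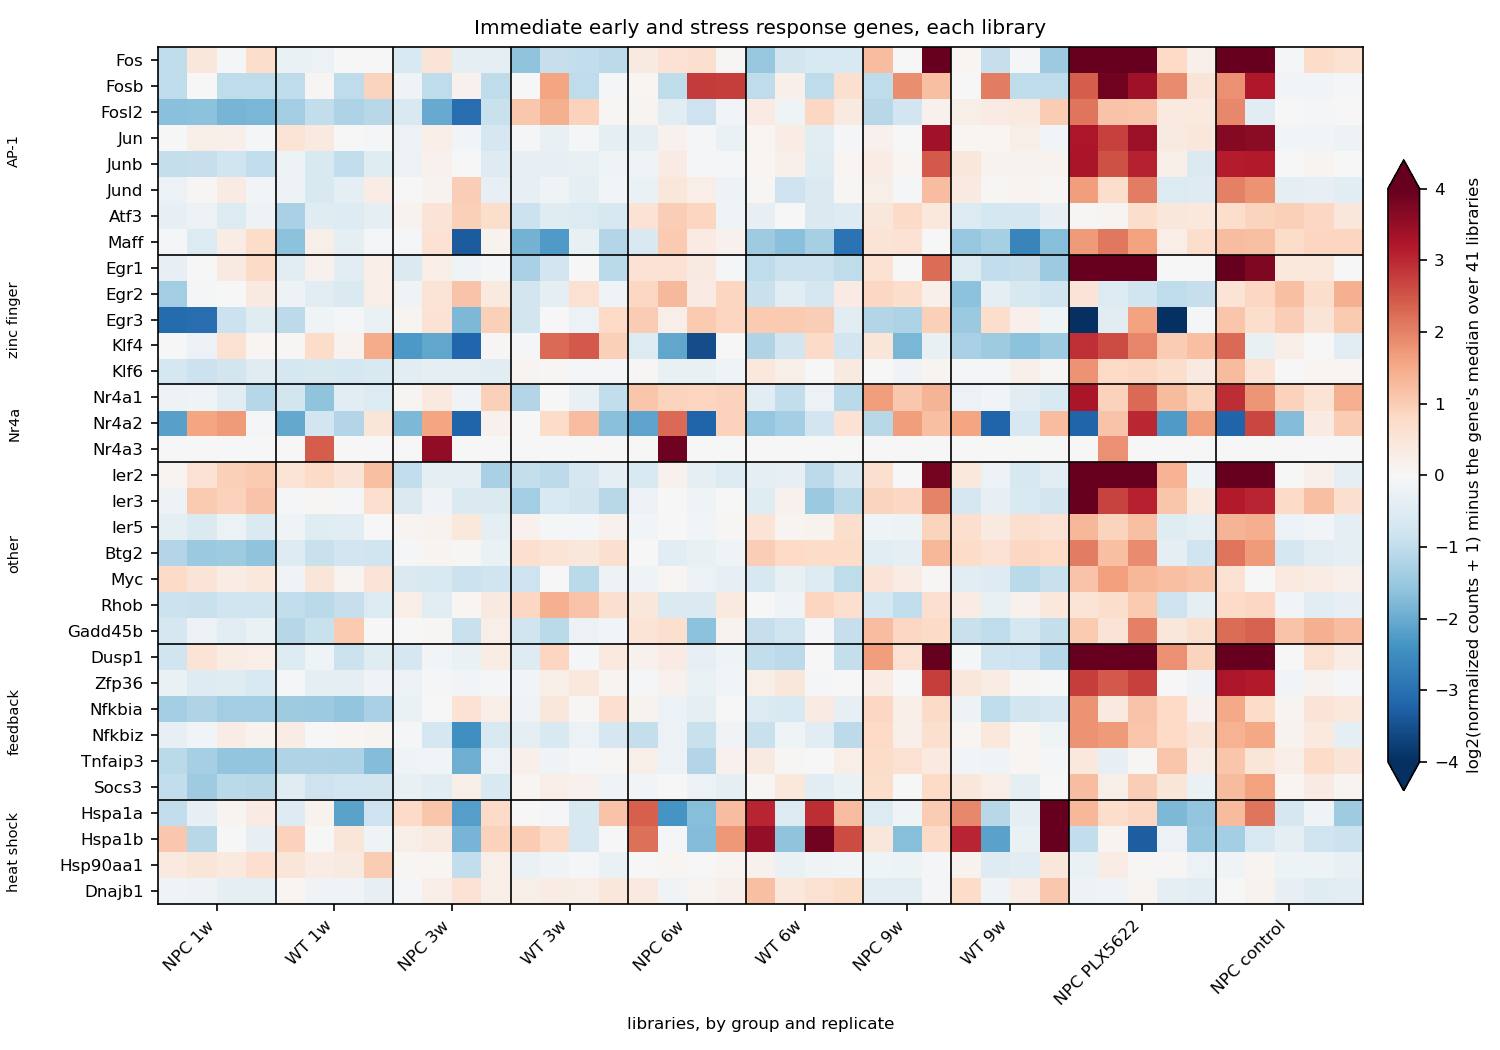
Each of the 33 genes (rows, by role) in each of the 41 libraries (columns, by group), coloured by log2(normalized counts + 1) minus the gene's median over all libraries, with colours ending at 4 in either direction. The columns with many strongly raised genes are the 6 libraries named in the text. Hspa1a and Hspa1b have their highest values in other libraries, 5 of the 6 highest in their sum being WT 6w and WT 9w. Hspa1a is also raised in control replicate 2, at 99.5 normalized counts.

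The spread inside the groups was wide at 9 weeks. Over the 3 groups of NPC mice of 9 weeks, the within-group SD on the log2 scale had a median of 0.955 over the 32 members, beside 0.335 over all 14312 genes. Fos, Egr1, Ier2, Dusp1 and Nr4a2 lay above the 99th percentile of all genes. In NPC groups of 1 to 6 weeks the members' median SD was 0.399, beside 0.451 over all genes, and in WT groups it was 0.364, beside 0.298. The SD of Fos was 3.10 in the groups of 9 weeks, 0.55 in NPC groups of 1 to 6 weeks and 0.46 in WT groups.

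Several other measures moved with the 6 libraries in whole or in part, and their part in the result was not tested. Ccl3, a chemokine of activated microglia, was at 6987, 5765, 5976, 969 and 1558 normalized counts in PLX5622 replicates 1 to 5. Among control replicates 1 to 5 the values were 10495, 7905, 1875, 1667 and 1519.7, and NPC 9w replicates A, B and C held 1468, 1298 and 6335. These are the 6 libraries high in Fos, highest here as well. Its neighbour Ccl4, a chemokine too, was at 6584, 9871, 8782, 1293 and 1508 normalized counts in PLX5622 replicates 1 to 5. Control replicates 1 to 5 held 8197, 7794, 1883, 1803 and 1491, and NPC 9w replicates A, B and C held 1680.0, 1394 and 4816. For Ccl4 too, the 6 libraries high in Fos were the highest of the 13. The linker histone gene Hist1h1c, chosen after its values were seen, was at 574, 866, 707, 64.4 and 97.3 normalized counts in PLX5622 replicates 1 to 5. It was at 929.7, 1115, 177, 154 and 176 in control replicates 1 to 5, and at 137, 184 and 1124 in NPC 9w replicates A, B and C, again highest in these 6, although libraries of mice of 1 week held 1035 to 1518. Markers of choroid plexus epithelium, a list of 15 also chosen after values were seen, had summed levels of 37712, 47021, 64992, 7515 and 6363 in PLX5622 replicates 1 to 5. The sums were 67611, 22721, 4337, 1226 and 2752 in control replicates 1 to 5 and 65426, 36893 and 42175 in NPC 9w replicates A, B and C. Within the treatment arm, 11 of the 15 had the same 5 libraries on top, but all 3 NPC 9w libraries were high in these markers, and of them replicate C alone was high in Fos. Ttr, the main transcript of that epithelium, was at 19514, 22376, 32074, 3048 and 2614 normalized counts in PLX5622 replicates 1 to 5. The values were 35879, 11510.1, 1974, 663 and 1159.5 in control replicates 1 to 5 and 29630.4, 12907 and 18889 in NPC 9w replicates A, B and C.

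Monocyte and neutrophil markers summed to 25711, 20092, 112617, 18905 and 24537 in PLX5622 replicates 1 to 5 and to 16659.5, 22188, 22229, 24845 and 19876 in control replicates 1 to 5. Replicate 3 of the PLX5622 group stood apart and the other 4 libraries high in Fos there did not. Microglial markers summed to 966102, 1025390, 1031590, 1006080 and 1292100 in PLX5622 replicates 1 to 5. The sums were 1106230, 1298670, 1297500, 1255690 and 1352140 in control replicates 1 to 5. They leaned lower in libraries high in Fos, while PLX5622 replicate 4 and control replicate 2 went the other way. Over the 3 groups of 9 weeks, markers of neurons summed to 95.8 to 502, of astrocytes to 5627 to 12732 and of oligodendrocytes to 6906 to 17566. The sums of border macrophage and lymphocyte markers, which differed between PLX5622 and control libraries, are given with that comparison. Xist, transcribed in females, was at 653 normalized counts or above in PLX5622 replicates 1, 2 and 5 and in control replicates 1 and 5 and was at 13.3 or below in the other 5 libraries, a division that does not match that of Fos. In sorted bulk samples, more cells that transcribe a gene and more RNA per cell cannot be told apart.

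The sequences just before the start of transcription are shown for 5 immediate early and feedback genes that moved in the 6 libraries or with genotype. Those of the 2 inducible Hsp70 genes, whose highest values lay in other libraries, are shown as well. Promoter sequence was found for 27 of the 33 genes in RefSeq (GRCm38.p6), and the 250 bases before the start of each were searched on both strands. Capitals mark the letters found. They are TGACG, the core of the cAMP response element (CRE) to which CREB binds, alone or within the full element TGACGTCA, the TATA box TATAAA, the heat shock element GAANNTTC, the CArG box to which serum response factor binds, and the NF-kB site. The sequence of Fos lies at chr12:85473640-85473889 on the plus strand. The others lie on the minus strand, at chr17:26508473-26508722 for Dusp1, chr1:134079156-134079405 for Btg2, chr7:28379229-28379478 for Zfp36, chr12:55492648-55492897 for Nfkbia, chr17:34972157-34972406 for Hspa1a and chr17:34959239-34959488 for Hspa1b.
Fos: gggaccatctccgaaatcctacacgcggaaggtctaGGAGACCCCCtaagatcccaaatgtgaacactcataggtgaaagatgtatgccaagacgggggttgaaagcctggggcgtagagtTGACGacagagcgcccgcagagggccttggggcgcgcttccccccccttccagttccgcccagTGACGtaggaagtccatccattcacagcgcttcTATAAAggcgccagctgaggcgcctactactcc
Dusp1: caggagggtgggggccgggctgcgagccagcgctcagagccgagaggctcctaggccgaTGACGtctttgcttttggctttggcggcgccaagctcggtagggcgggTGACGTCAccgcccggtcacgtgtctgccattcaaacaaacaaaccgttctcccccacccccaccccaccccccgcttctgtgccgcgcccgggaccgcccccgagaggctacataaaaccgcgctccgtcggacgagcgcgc
Btg2: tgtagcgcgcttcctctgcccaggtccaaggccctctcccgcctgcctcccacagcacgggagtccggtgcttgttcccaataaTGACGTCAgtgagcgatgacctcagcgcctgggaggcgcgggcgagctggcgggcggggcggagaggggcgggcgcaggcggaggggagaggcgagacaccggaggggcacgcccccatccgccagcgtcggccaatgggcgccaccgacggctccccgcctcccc
Zfp36: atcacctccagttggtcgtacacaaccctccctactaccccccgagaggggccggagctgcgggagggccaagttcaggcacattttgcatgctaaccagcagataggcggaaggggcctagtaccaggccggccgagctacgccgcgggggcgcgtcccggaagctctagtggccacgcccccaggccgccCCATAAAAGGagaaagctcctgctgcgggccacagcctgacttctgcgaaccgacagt
Nfkbia: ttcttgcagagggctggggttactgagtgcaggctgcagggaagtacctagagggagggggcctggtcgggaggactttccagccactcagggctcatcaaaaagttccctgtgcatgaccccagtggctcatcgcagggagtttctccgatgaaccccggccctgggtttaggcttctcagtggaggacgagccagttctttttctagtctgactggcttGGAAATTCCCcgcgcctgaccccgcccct
Hspa1a: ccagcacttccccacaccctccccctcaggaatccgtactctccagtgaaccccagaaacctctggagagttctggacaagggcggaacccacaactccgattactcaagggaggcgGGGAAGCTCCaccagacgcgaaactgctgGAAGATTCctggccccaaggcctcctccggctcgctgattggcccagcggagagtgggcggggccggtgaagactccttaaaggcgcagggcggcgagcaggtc
Hspa1b: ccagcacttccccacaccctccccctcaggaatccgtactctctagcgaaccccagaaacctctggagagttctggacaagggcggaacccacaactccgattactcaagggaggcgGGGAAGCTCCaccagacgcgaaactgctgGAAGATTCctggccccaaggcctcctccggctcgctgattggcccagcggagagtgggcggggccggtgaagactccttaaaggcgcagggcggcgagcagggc

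In Fos the NF-kB site begins 214 bases before the start, the CRE cores 129 and 66 bases before it and the TATA box 33 bases before it. Dusp1 holds a core 191 bases before the start and a full CRE that begins 143 bases before it, and Btg2 holds a full CRE that begins 166 bases before it. In Zfp36 the CArG box begins 58 bases before the start, and in Nfkbia the NF-kB site begins 29 bases before it. Jun, whose sequence is not shown, also moved in the 6 libraries. It holds a heat shock element that begins 128 bases before the start and no other of the motifs searched. In Hspa1a and in Hspa1b the NF-kB site begins 133 bases and the heat shock element 104 bases before the start, and their 250 bases are the same at 247 positions. Over the 27 genes, the CRE core was found in 14 (51.9%), beside 19.8% of 27025 genes with such a sequence, and the full CRE, which contains the core on both strands, in 3 (11.1%, beside 1.77%). The NF-kB site was found in 10 (37.0%, beside 8.23%), the CArG box in 2 (7.41%, beside 1.62%) and the heat shock element in 4 (14.8%, beside 7.73%). Of the others, the tail-to-tail form TTCNNGAA was found in 1 gene (3.70%, beside 8.11%), the AP-1 site TGANTCA in 1 (3.70%, beside 7.82%) and the TATA box in 4 (14.8%, beside 14.3%). A match of letters is a description and not a site shown to be bound.

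Against WT mice, more of these genes were called in NPC mice at 9 weeks than at the other ages. The test was limma's moderated test on log2(normalized counts + 1), with p-values adjusted by the Benjamini-Hochberg method over all genes tested and a threshold of 0.05. At 1 week, 0 of the 31 genes were higher and 0 lower, beside 0.876% and 0.577% of all 14046 genes. There, 3 of the 31 had an unadjusted p under 0.05, beside 1642 of all 14046 genes. EdgeR and DESeq2 on recovered reads also called 0 members. At 3 weeks 2 were higher and 5 lower, beside 14.3% and 12.6% of all genes, a share of the members near or below that of the table. That reading depends on NPC 3w replicate C. Without it 3 members were higher and 5 lower, while the all-gene split fell to 1251 higher and 806 lower, in place of 2006 and 1771. With libraries rescaled to the same total, the all-gene split at 3 weeks was 1503 higher and 2440 lower in place of 2006 and 1771. Leaving out WT replicate A, WT replicate D or NPC replicate D left 1 member higher there, and leaving out WT replicate B left 3 lower. At 6 weeks 5 were higher and 3 lower, beside 8.76% and 6.5%, and without both NPC 6w libraries B and C 1 was higher and 1 lower, Nr4a1 and Btg2. The all-gene split without both was 522 higher and 350 lower, in place of 1230 and 913. Oligodendrocyte markers summed to 19838 and 17169 in libraries B and C, against 9199 and 6832 in NPC 6w replicates A and D. Without NPC 6w replicate B alone, 3 were higher. At 9 weeks 12 were higher and 1 lower, beside 11.2% and 7.77%, and the median log2 change of the 31 was 0.82, beside 0.03 over all genes. Without NPC 9w replicate C, 10 were higher and 5 lower at 9 weeks, and with all libraries rescaled to the same total, the all-gene split at 9 weeks was 1418 higher and 1490 lower in place of 1574 and 1091. The 4 comparisons use separate mice, but share 1 estimate of the spread. Choroid plexus markers also moved with genotype, with sums of 36893 to 65426 in NPC 9w libraries, against 4533 to 6886 in WT 9w libraries. At 6 weeks the sums were 10072 to 61117 in NPC libraries, against 4524 to 7009 in WT libraries. At 3 weeks they overlapped, at 6514 to 34894 and 2147 to 13601. The part of these markers in the counts was not tested.

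**Figure D3:**
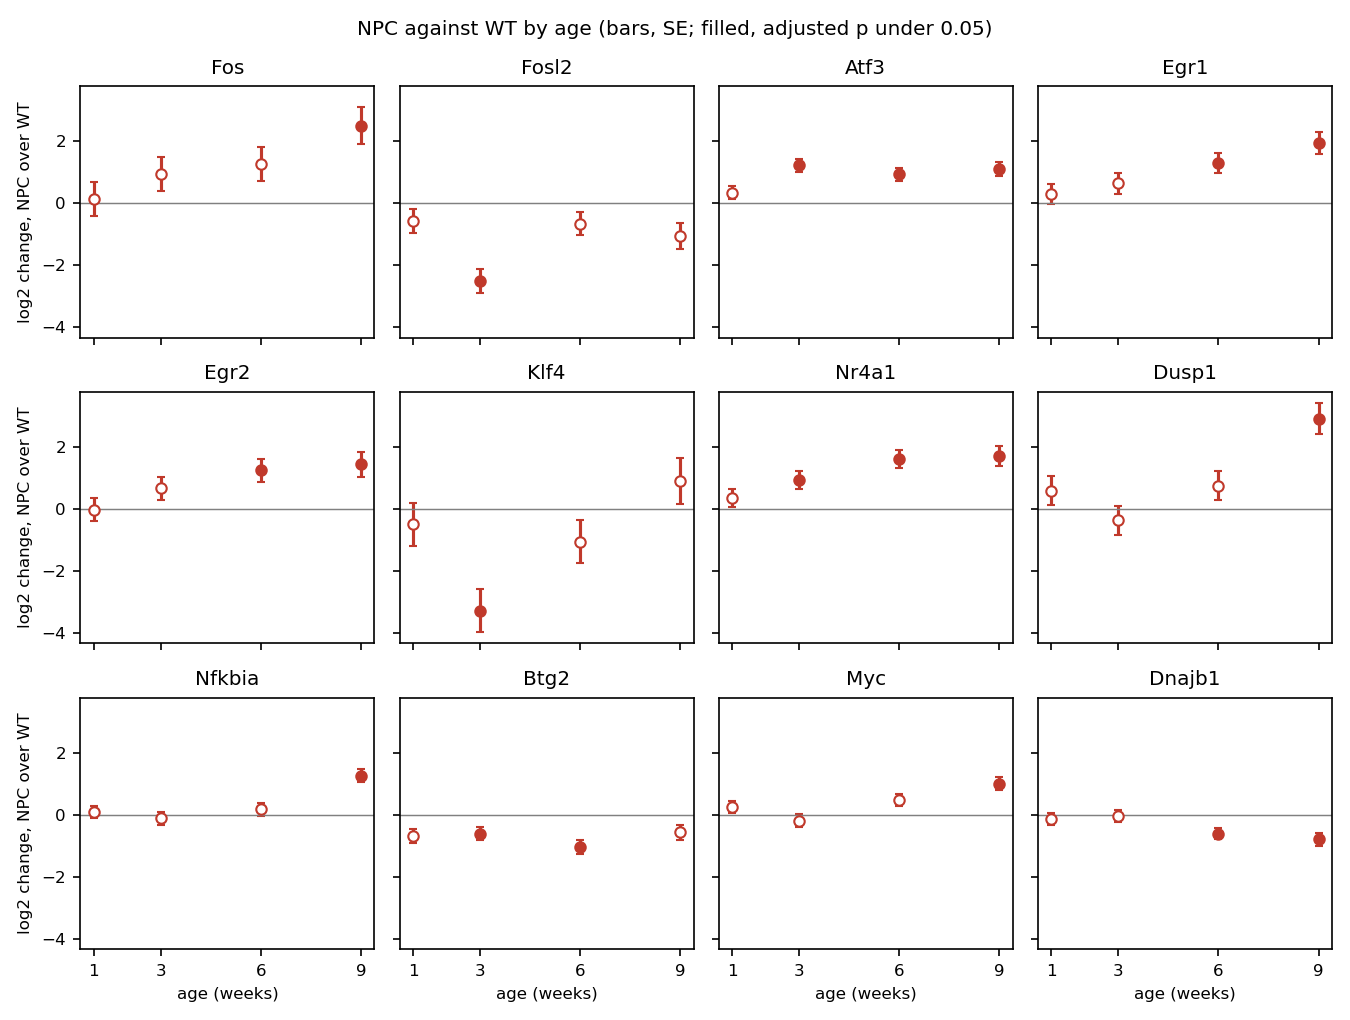
Log2 change of NPC over WT mice (vertical axis) with its SE, at 1, 3, 6 and 9 weeks (horizontal axis), for 12 genes; filled points passed the threshold. Atf3 and Nr4a1 are filled at 3, 6 and 9 weeks, Dusp1, Nfkbia, Myc and Fos at 9 weeks.

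Among AP-1 genes, Atf3 was the member that differed from 3 weeks on. It was at 1108, 1429, 1927 and 1642 normalized counts in NPC 3w libraries, against 547, 721, 681 and 634 in WT 3w libraries. This is a log2 change of 1.22 ± 0.21, adjusted p = 0.00014. At 6 weeks it was at 1507, 1957, 1827 and 886 in NPC libraries, against 787, 999, 668 and 691 in WT libraries (0.93 ± 0.21, adjusted p = 0.0027), where NPC replicate D lay inside the WT range. At 9 weeks the values were 1373, 1687 and 1331 in NPC libraries, against 687, 610.5, 610.2 and 794 in WT libraries (1.12 ± 0.23, adjusted p = 0.00070), with no overlap and nearly the same change without NPC 9w replicate C (1.18). Atf3 rose in NPC mice between 1 and 3 weeks, to a mean of 1526 ± 345, against 798 ± 82.7 at 1 week (SD, n = 4 each; 0.91 ± 0.21, adjusted p = 0.0019). In WT mice it averaged 646 ± 74.7 at 3 weeks, against 646 ± 162 at 1 week (0.03 ± 0.21, adjusted p = 0.920), and the difference between the 2 changes did not pass the threshold (0.88 ± 0.30, adjusted p = 0.156).

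Fos itself was higher in NPC mice at 9 weeks, with 340.2, 146 and 3284 normalized counts in NPC libraries, against 151, 76.4, 137 and 51.9 in WT libraries. On the log2 scale the change was 2.51 ± 0.59, adjusted p = 0.0029. The groups overlap, and without NPC 9w replicate C the log2 change was 1.22 with an adjusted p of 0.066, so the call rests on that library. At 6 weeks Fos was at 184, 216, 228 and 149 in NPC libraries, against 49.8, 86.1, 94.8 and 93.8 in WT libraries, and did not pass (1.28 ± 0.55, adjusted p = 0.120) although the libraries did not overlap. This SE uses the spread shared by all time course groups, among them NPC 9w with replicate C at 3284. Maff, a small Maf protein that pairs with AP-1 factors, was at 71.2, 73.3 and 48.5 in NPC 9w libraries, against 16.4, 18.8, 6.95 and 14.2 in WT 9w libraries (2.17 ± 0.68, adjusted p = 0.025), and was also higher at 6 weeks (2.09 ± 0.63, adjusted p = 0.023). No library overlapped at either age, but the call at 9 weeks ended without WT replicate C or without either of NPC replicates A and B. The call at 6 weeks ended without WT replicate D or without either of NPC replicates B and C. Fosl2, a Fos relative of slower kinetics, was lower in NPC mice at 3 weeks, with 112, 41.6, 19.5 and 91.1 in NPC libraries, against 359, 456, 322 and 176 in WT libraries. The fitted log2 change was -2.50 ± 0.39, adjusted p = 2.6e-05. It had risen in WT mice to these values, against 64.3, 85.0, 71.8 and 77.5 at 1 week (2.05 ± 0.39, adjusted p = 0.00013), and the corresponding change in NPC mice was 0.11 ± 0.39, adjusted p = 0.862. The difference between the changes did not pass the threshold (-1.93 ± 0.55, adjusted p = 0.081). Jun, Junb and Jund passed the threshold at no age in NPC against WT mice, and without NPC 9w replicate C their log2 changes at 9 weeks were 0.01, -0.04 and -0.05. Fosb reached 13.2 normalized counts at most in the time course.

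Among the zinc finger genes, Egr1 was at 1657, 1079 and 5089 normalized counts in NPC 9w libraries, against 729, 548, 567 and 396 in WT 9w libraries (log2 change 1.93 ± 0.36, adjusted p = 0.00020), with no overlap. Without NPC 9w replicate C the change was 1.29 with an adjusted p of 0.0055. At 6 weeks Egr1 was at 1598, 1619.9, 1368 and 1020.5 in NPC libraries, against 529, 592, 596 and 526 in WT libraries (1.30 ± 0.33, adjusted p = 0.0066), again with no overlap and with none of the 6 high libraries involved. Egr2 was at 203, 185 and 132 in NPC 9w libraries, against 35.8, 86.9, 71.4 and 65.2 in WT 9w libraries (1.45 ± 0.40, adjusted p = 0.011), and differed in the same direction at 6 weeks (1.26 ± 0.37, adjusted p = 0.020). Leaving out NPC 9w replicate A ended the call of Egr2 at 9 weeks, with an adjusted p of 0.0624, and the call at 6 weeks ended without NPC replicate B or without either of WT replicates A and C. Klf4, a factor of macrophage and endothelial differentiation, was at 12.6, 14.9, 6.50 and 68.1 in NPC 3w libraries, against 63.1, 326, 365 and 130.5 in WT 3w libraries (-3.28 ± 0.69, adjusted p = 0.0010), where 2 WT libraries were far higher than the others and NPC replicate D overlapped the WT range. Klf6, a widely expressed relative, was lower by a small and even amount, with 4282, 4398, 4521 and 4213 in NPC 3w libraries, against 6154, 5953, 5597 and 5617 in WT 3w libraries (-0.42 ± 0.10, adjusted p = 0.0035) and a change of -0.43 ± 0.10, adjusted p = 0.0031 at 6 weeks, where the groups overlap. Klf6 rose between 1 and 3 weeks in both genotypes, by 0.30 in NPC mice and 0.69 in WT mice on the log2 scale. With rescaled totals the rise in NPC mice did not pass, with an adjusted p of 0.565. Egr3 stayed at 34.8 normalized counts or below in the time course and passed in NPC mice at 3 against 1 week alone (1.82 ± 0.67, adjusted p = 0.043). That call was lost in 10 of 17 alternatives, among them edgeR, a pseudocount of 10 and leaving out NPC 1w replicate A or B or NPC 3w replicate A, B or D, and its log2 change ranged from 0.89 to 2.41.

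Nr4a1, which is induced in stimulated macrophages, differed from 3 weeks on. It was at 198, 240.2, 164 and 354 normalized counts in NPC 3w libraries, against 80.6, 182, 148 and 91.1 in WT 3w libraries, where the groups overlap and leaving out WT replicate A, WT replicate D or NPC replicate D ended the call. The log2 change was 0.94 ± 0.29, adjusted p = 0.019. At 6 weeks it was at 391, 340.3, 333 and 348 in NPC libraries, against 133, 92.7, 156 and 85.1 in WT libraries. This is a log2 change of 1.63 ± 0.29, adjusted p = 0.00018. At 9 weeks it was at 583, 386 and 469 in NPC libraries, against 154, 168, 135 and 120.4 in WT libraries. On the log2 scale the change was 1.72 ± 0.32, adjusted p = 0.00020. At 6 and 9 weeks no library of one genotype fell in the range of the other. Its change at 9 weeks was 1.72 without NPC 9w replicate C, which was not the highest of the 3. Nr4a2 ranged from 0 to 43.7 normalized counts in the time course and passed in no comparison. Nr4a3 was at 0 in all but 4 libraries, its highest value being 13.8 in NPC 6w replicate B.

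Of the remaining immediate early genes, Ier3 was at 500.3, 481 and 1081 normalized counts in NPC 9w libraries, against 172, 218, 179 and 164 in WT 9w libraries. The fitted log2 change was 1.81 ± 0.33, adjusted p = 0.00022. Gadd45b, a growth arrest and stress gene induced through NF-kB, was at 172, 129.7 and 123 in NPC libraries, against 38.9, 35.6, 44.6 and 36.8 in WT libraries at that age. The log2 change was 1.83 ± 0.47, adjusted p = 0.0061. Myc, the growth-promoting transcription factor, was at 3402, 2895 and 2431 in NPC 9w libraries, against 1754, 1679, 1133 and 1281 in WT 9w libraries. This is a log2 change of 1.00 ± 0.22, adjusted p = 0.0011. For these 3 genes no NPC library overlapped the WT libraries, and the changes without NPC 9w replicate C were 1.43, 1.92 and 1.13, each past the threshold. Ier2 overlapped between the groups and its change was 0.56 without that library (adjusted p = 0.259), against 1.72 ± 0.49, adjusted p = 0.013 with it.

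Btg2 was lower in NPC mice at 3 and 6 weeks, and at 9 weeks without NPC 9w replicate C. It was at 5411, 5976, 5773 and 4646 normalized counts in NPC 3w libraries, against 8794, 8069.8, 7508 and 8733 in WT 3w libraries (-0.61 ± 0.22, adjusted p = 0.041), and at 5542, 4011, 4534 and 4876 in NPC 6w libraries, against 10879, 9636, 9173 and 9199 in WT 6w libraries. On the log2 scale the change was -1.04 ± 0.22, adjusted p = 0.0012. Neither pair of groups overlapped, though at 3 weeks leaving out any WT replicate, or NPC replicate C or D, ended the call, with an adjusted p of up to 0.0942. At 9 weeks it was at 4060.4, 4231 and 13945 in NPC libraries, against 9197, 8237, 9798 and 9565 in WT libraries, and did not pass. The fitted log2 change was -0.56 ± 0.24, adjusted p = 0.098. Without NPC 9w replicate C the change was -1.15 with an adjusted p of 8.8e-07, and the other 2 NPC libraries lay below every WT library while replicate C lay above every one. Ier5 and Rhob likewise passed as lower at 9 weeks without that library (-0.75 and -0.99; adjusted p = 0.0050 and 0.022) and not with it. Rhob was also lower at 3 weeks, with 13525, 8264, 11957 and 14255 in NPC libraries, against 19980.0, 29721, 24796 and 17558 in WT libraries (-0.94 ± 0.29, adjusted p = 0.018), a call that ended without WT replicate B or NPC replicate B.

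Among the feedback genes, Dusp1 showed the largest change of the 31 at 9 weeks. It was at 1737, 824 and 10941 normalized counts in NPC 9w libraries, against 524, 311, 301 and 245 in WT 9w libraries, a change of 7.54-fold (95% interval 3.69 to 15.4) or 2.91 ± 0.50, adjusted p = 9.2e-05 on the log2 scale. No library overlapped, and without NPC 9w replicate C the log2 change was 1.85 with an adjusted p of 0.0013. In a fit of these 2 groups alone it did not pass, with an adjusted p of 0.0596. Nfkbia was at 10873, 7309 and 10442 in NPC 9w libraries, against 5293, 3021, 3701 and 3945 in WT 9w libraries (1.27 ± 0.22, adjusted p = 8.2e-05), and the change was 1.19 without replicate C. Zfp36, Nfkbiz, Tnfaip3 and Socs3, the last 3 being an atypical IkB protein, the A20 enzyme and an inhibitor of cytokine signalling, passed at no age in NPC against WT mice. At 3 weeks the genotype made no difference to Dusp1 or Nfkbia that passed (-0.36 ± 0.47, adjusted p = 0.591 and -0.12 ± 0.20, adjusted p = 0.694).

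The genotype effect itself changed between 3 and 9 weeks for 2 of the 31 genes, Dusp1 and Nfkbia, both upward, and for 0 downward, beside 0.263% and 0.192% of all genes. The change in effect was 3.27 ± 0.69, adjusted p = 0.024 for Dusp1 and 1.38 ± 0.30, adjusted p = 0.025 for Nfkbia on the log2 scale. Neither held without NPC 9w replicate C (adjusted p = 0.057 and 0.097), with a replicate block, which called 0, or in a fit limited to the 4 groups. Over all genes the block called 5 upward and 3 downward and the limited fit 12 and 5, in place of 37 and 27. Leaving out WT 3w replicate B or WT 9w replicate D ended both calls as well. That of Nfkbia also ended without WT 3w replicate D, without either of WT 9w replicates B and C or without NPC 9w replicate A. In all, 14 of the 31 had an unadjusted p under 0.05 for this term, beside 1586 of all 14046 genes. Between 1 and 3 weeks the effect changed for 0 genes upward and 0 downward, beside 0.861% and 0.199% of all genes. An unadjusted p under 0.05 was found for 5 of 31, beside 2525 of all 14046 genes. DESeq2 on recovered reads called 1 in each direction there, and edgeR called 0.

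Between 1 and 3 weeks, when microglia mature, members changed in both directions in both genotypes. In NPC mice 12 of the 31 were higher at 3 than at 1 week and 6 lower, beside 12.2% and 12.8% of all genes, and in WT mice 7 were higher and 4 lower, beside 15.7% and 18.4%. In WT mice the members were thus called about as often as all genes. With libraries rescaled to the same total, 4 were higher in NPC mice in place of 12, and over all genes the split was 1033 higher and 3130 lower in place of 1710 and 1799. In WT mice the all-gene split moved to 1576 higher and 3291 lower, in place of 2203 and 2583. This scaling shifted the median log2 change of all genes to -0.28 in NPC mice, in place of -0.07, so small rises there depend on it. Leaving out NPC 1w replicate B, C or D or NPC 3w replicate B or D left 5 to 7 genes higher in NPC mice, and leaving out NPC 1w replicate C or D or NPC 3w replicate C left 2 or 3 lower. Klf6, Btg2, Rhob, Nfkbia, Tnfaip3 and Socs3 were called higher in both genotypes. Ier2, Ier3, Myc and Hsp90aa1 were called lower in both. In NPC mice the call of Tnfaip3 ended without any of NPC 1w replicates B, C and D and NPC 3w replicates A, B and D, that of Klf6 without NPC 1w replicate B or C or NPC 3w replicate B, and that of Rhob without NPC 3w replicate D. That of Ier2 ended without NPC 1w replicate C or D or NPC 3w replicate D. Btg2 was at 5411, 5976, 5773 and 4646 normalized counts in NPC mice of 3 weeks, against 2465, 1994, 2060.3 and 1815 at 1 week (1.39 ± 0.22, adjusted p = 2.0e-05), and its change in WT mice was 1.32 ± 0.22, adjusted p = 2.8e-05. Nfkbia was at 5148, 6086, 9110.3 and 7384 in NPC mice of 3 weeks, against 2408, 2684, 2321 and 2322 at 1 week (1.48 ± 0.20, adjusted p = 2.0e-06), with a change of 1.69 ± 0.20, adjusted p = 1.4e-07 in WT mice. Myc went the other way, with 1576, 1559, 1321 and 1370.3 in NPC mice of 3 weeks, against 4054, 3365, 2905 and 3184 at 1 week (-1.21 ± 0.20, adjusted p = 3.8e-05), and a change of -0.76 ± 0.20, adjusted p = 0.0036 in WT mice, whose 3-week libraries overlapped those of 1 week. For Btg2 and Nfkbia no library of 3 weeks overlapped one of 1 week in either genotype.

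From 3 to 9 weeks, 11 of the 31 genes rose in NPC mice and 0 fell, beside 2.31% and 2.11% of all genes, while in WT mice 0 rose and 1 fell, beside 0.228% and 0.249%. With rescaled totals the all-gene splits were 433 higher and 222 lower in NPC mice, in place of 324 and 296, and 62 and 28 in WT mice, in place of 32 and 35. The 11 were Fos, Junb, Klf6, Ier2, Ier3, Myc, Dusp1, Zfp36, Nfkbiz, Tnfaip3 and Socs3. Without NPC 9w replicate C 4 were called, namely Tnfaip3, Myc, Nfkbiz and Ier3, so the larger count rests on that library. Leaving out NPC 9w replicate A ended the calls of Myc, Nfkbiz and Tnfaip3 and left 6 genes in all, and leaving out NPC 3w replicate C or D left 7. Myc was at 3402, 2895 and 2431 normalized counts in NPC mice of 9 weeks, against 1576, 1559, 1321 and 1370.3 at 3 weeks (0.99 ± 0.22, adjusted p = 0.0066), and 1.11 without that library. Nfkbiz was at 774, 522 and 698 at 9 weeks, against 438, 275, 80.6 and 296 at 3 weeks (1.50 ± 0.34, adjusted p = 0.0092), where NPC 3w replicate C was far below the rest. In WT mice the gene that fell was Nfkbia, at 5293, 3021, 3701 and 3945 at 9 weeks, against 5605, 8478, 6344 and 9678 at 3 weeks (-0.91 ± 0.20, adjusted p = 0.027), a call that ended when any of 6 of the 8 libraries was left out, WT 3w replicate A and WT 9w replicate A being the exceptions. In a fit limited to the NPC groups of 3 and 9 weeks, 0 of the 31 passed. Over all genes that fit called 16 higher and 4 lower, in place of 324 and 296, so few genes of any kind passed in it. These comparisons use the same NPC 9w libraries as the comparison with WT mice of 9 weeks, so they are not separate evidence.

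The heat shock genes had their highest values in libraries other than the 6 high in Fos. Hspa1a and Hspa1b encode the stress-inducible Hsp70 from neighbouring, nearly identical genes: 47.1% of the 100-base windows of the Hspa1a transcript are found unchanged in Hspa1b, and 49.9% the other way round. The split of reads between them is therefore uncertain, and their sum is given. It was 243, 28.7, 13.2 and 143 normalized counts in NPC 6w libraries, against 502, 22.5, 572 and 219 in WT 6w libraries, and 51.1, 26.6 and 90.5 in NPC 9w libraries, against 312, 14.7, 38.7 and 1159 in WT 9w libraries. The 6 highest libraries, at 219 or above, were WT 6w replicates A, C and D, WT 9w replicates A and D and NPC 6w replicate A. In the treatment arm the sum was 68.5, 64.5, 41.3, 28 and 15.3 in PLX5622 replicates 1 to 5 and 63.9, 116, 33.7, 34.2 and 21.4 in control replicates 1 to 5. Over the 41 libraries, those highest in Fos were thus not those highest in the Hsp70 pair. Within the treatment arm, however, the sum was 41.3 to 116 in the 5 libraries high in Fos and 15.3 to 34.2 in the other 5. Hspa1a alone held 35.6 to 99.5 normalized counts in these 5 and 5.60 to 19.3 in the other 5, while Hspa1b overlapped. Among NPC 9w libraries, the sum was also highest in replicate C, at 90.5. Neither gene of the pair passed the threshold in any of the 12 comparisons.

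**Figure D4:**
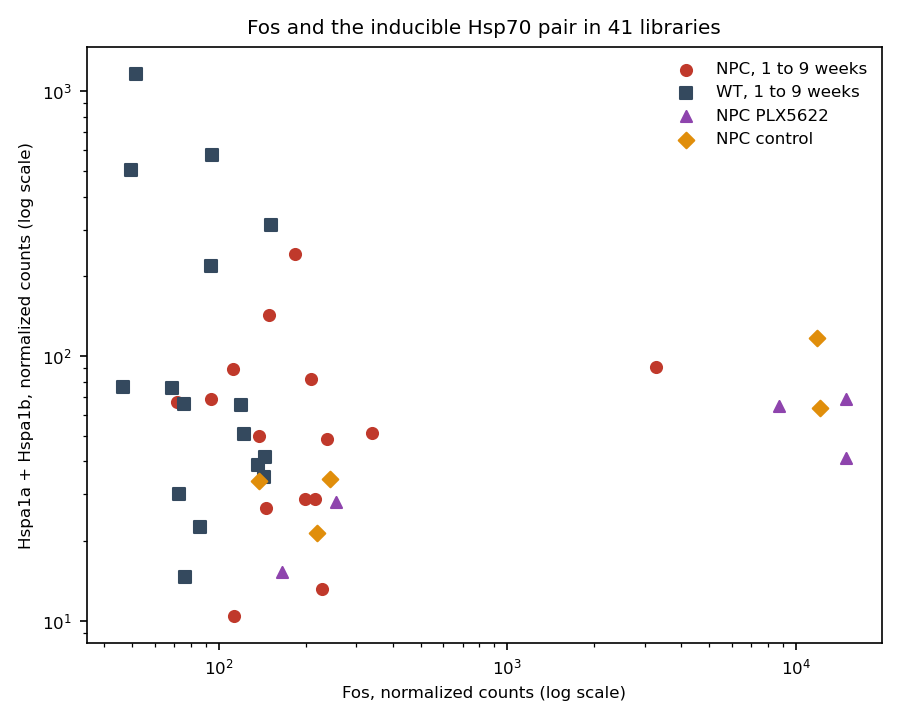
Normalized counts of Fos (horizontal axis) and of Hspa1a plus Hspa1b (vertical axis), both on log scales, in the 41 libraries, by group. The 6 libraries with the highest Hspa1a plus Hspa1b, up to 1159 in WT 9w replicate D, hold 49.8 to 184 normalized counts of Fos, and the 6 libraries highest in Fos hold 41.3 to 116 of the pair.

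Dnajb1, the Hsp40 partner of Hsp70, was lower in NPC mice at 6 weeks, with 3286, 2294, 2709 and 2909 normalized counts in NPC libraries, against 5800.0, 3407, 3849 and 4179.7 in WT libraries. The log2 change was -0.60 ± 0.19, adjusted p = 0.025. No library overlapped, but the call ended without WT replicate A or without either of NPC replicates B and C, with an adjusted p of 0.320 without both B and C. At 9 weeks it was at 1900.1, 1848 and 2398 in NPC libraries, against 4175, 2259.7, 3078 and 5298 in WT libraries (-0.79 ± 0.20, adjusted p = 0.0054), where WT replicate B fell within the NPC range. The highest Dnajb1 values, 5800.0 in WT 6w replicate A and 5298 in WT 9w replicate D, came from libraries high in the Hsp70 pair. Hsp90aa1 did not pass in NPC against WT mice at any age. It fell between 1 and 3 weeks in both genotypes (-0.64 ± 0.20, adjusted p = 0.020 in NPC mice and -0.72 ± 0.20, adjusted p = 0.0069 in WT mice), a call that ended in NPC mice without NPC 1w replicate D or NPC 3w replicate C.

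PLX5622 treatment was set against control in NPC mice of 9 weeks, and 1 of the 32 genes was higher and 1 lower, beside 0.637% and 0.311% of the 12877 genes tested. The gene higher was Myc, at 5284, 7489, 5965, 5453 and 5164 normalized counts in PLX5622 libraries, against 3644, 2377, 3093, 2914 and 2716 in control libraries, a change of 1.99-fold (95% interval 1.63 to 2.44) or 0.99 ± 0.13, adjusted p = 0.0070 on the log2 scale. No library overlapped. Without the 5 libraries high in Fos the change was 0.87 with an adjusted p of 0.046. The gene lower was Egr2, at 163, 77.2, 64.1, 56.0 and 59.1 in PLX5622 libraries, against 167, 202, 262, 187 and 303 in control libraries. This is a log2 change of -1.50 ± 0.32, adjusted p = 0.049. Its libraries did not overlap either, but replicate 1 of the PLX5622 group lay just under the lowest control library, and the call was lost in edgeR and when most single libraries were left out, with an adjusted p of up to 0.154. Fos averaged 7781 ± 7349.9 in PLX5622 libraries, against 4895 ± 6430.0 in control libraries (SD, n = 5 each), and did not pass (1.25 ± 1.99, adjusted p = 0.820). In all, 5 of the 32 had an unadjusted p under 0.05, beside 1931 of the 12877 genes. Markers of border macrophages moved with the treatment, with sums of 48178, 26341, 26240.3, 41710.1 and 34398 in PLX5622 libraries, against 29506, 19012, 22429, 27522 and 22747 in control libraries. Lymphocyte markers summed to 44.8 to 249.5 in PLX5622 libraries, against 4.69 to 29.2 in control libraries. The lymphocyte sums did not overlap and those of border macrophages did, and the part of either in the changes of Myc and Egr2 was not tested. A difference between PLX5622 and control in Fos, Jun, Egr1, Ier2 or Dusp1 was not detectable against this spread, and for Fos the ratio of PLX5622 to control was 2.38-fold (95% interval 0.104 to 54.8).

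**Figure D5:**
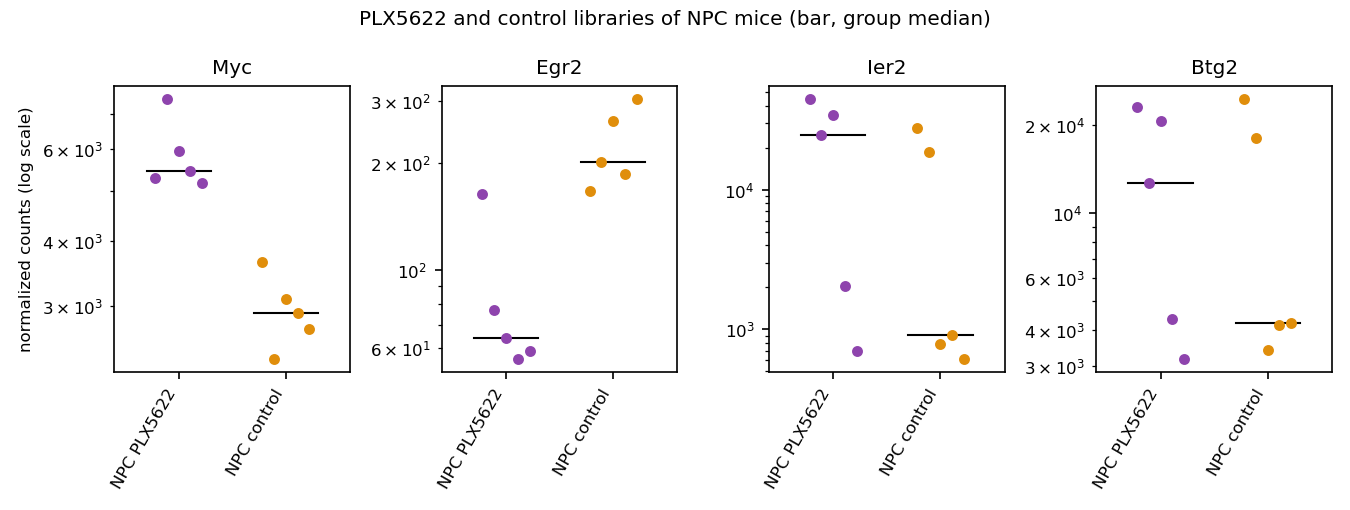
Normalized counts on a log scale (vertical axis) of 4 genes in the 5 PLX5622 and 5 control libraries (horizontal axis), with a bar at each median. Myc and Egr2 separate the groups, while Ier2 and Btg2 divide each group; for Btg2 the lowest of the 5 high libraries is at 12701 normalized counts and the highest of the other 5 at 4356.

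The control mice of the treatment arm and the untreated NPC mice of 9 weeks share genotype and age and were compared in a fit of all 41 libraries. Xist was at 652.9 and 756.6 normalized counts in control replicates 1 and 5. It was at 13.3 or below in the other control libraries and at 4.66 to 36.7 in NPC 9w libraries. The groups may thus differ in the sex of the mice, and its part was not tested. Of the 32 genes, 0 were higher and 0 lower, beside 0% and 0% of the 14312 genes. No member had an unadjusted p under 0.05, beside 598 of all genes, and over all genes edgeR called 0 and DESeq2 1. Both groups hold libraries of either kind, 2 of 5 high in Fos in the control group and 1 of 3 in the NPC 9w group.

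The 4 related gene lists, which share signals with the members but not genes, were counted in the same fits, and each list was chosen with earlier results of these data known. Of 39 tested further immediate early genes, 8 were higher and 6 lower in NPC mice at 9 weeks. The counts were 4 and 9 at 6 weeks, 3 and 13 at 3 weeks and 0 and 0 at 1 week. Of all genes, 11.2% were higher and 7.77% lower at 9 weeks, 8.76% and 6.5% at 6 weeks, 14.3% and 12.6% at 3 weeks and 0.876% and 0.577% at 1 week. The same shares apply to the other lists. The median log2 change at 9 weeks was -0.09 for this list, 0.46 for the NF-kB list, -0.22 for the chaperones and -0.18 for the upstream genes, beside 0.03 over all genes. At 9 weeks the smallest adjusted p-values among the 39 belonged to Cebpd, a C/EBP transcription factor (-1.50 ± 0.19, adjusted p = 9.8e-07), the cell cycle inhibitor gene Cdkn1a (-1.30 ± 0.18, adjusted p = 2.5e-06) and Txnip, which binds thioredoxin (-0.80 ± 0.12, adjusted p = 1.3e-05), all lower. Of 32 genes of NF-kB signalling and its targets, 15 were higher and 2 lower at 9 weeks, 12 and 4 at 6 weeks, 11 and 4 at 3 weeks and 0 and 1 at 1 week. Over all genes the shares were 11.2% and 7.77% at 9 weeks. Il1b, the cytokine interleukin-1 beta, was at 1972, 1906 and 2383 normalized counts in NPC 9w libraries, against 472, 533, 510.0 and 594 in WT 9w libraries (1.98 ± 0.23, adjusted p = 2.7e-07), with NPC 9w replicate C close to the other 2. Ccl3 and Ccl4 were the other 2 with the smallest adjusted p at 9 weeks (3.31 ± 0.37, adjusted p = 1.3e-07 and 2.24 ± 0.32, adjusted p = 5.9e-06), and both were highest in replicate C.

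Of 26 further chaperone genes, 5 were higher and 3 lower at 9 weeks, 2 and 2 at 6 weeks, 7 and 1 at 3 weeks and 0 and 0 at 1 week. The counts at 6 weeks are near the shares over all genes, 8.76% and 6.5%. Those with the smallest adjusted p at 9 weeks were Hspa9, the mitochondrial Hsp70 (0.70 ± 0.11, adjusted p = 2.7e-05), Hspa5, the Hsp70 of the endoplasmic reticulum (-0.49 ± 0.13, adjusted p = 0.0060), and the small heat shock protein gene Hspb8 (3.22 ± 0.88, adjusted p = 0.0096). Of 26 upstream kinases and factors, 2 were higher and 5 lower at 9 weeks, 1 and 4 at 6 weeks, 2 and 10 at 3 weeks and 0 and 0 at 1 week. Mapk14, the p38 alpha kinase, was lower at 3, 6 and 9 weeks (-0.42 ± 0.10, adjusted p = 0.0029, -0.52 ± 0.10, adjusted p = 0.00033 and -0.63 ± 0.11, adjusted p = 7.3e-05). Without NPC 3w replicate C the counts at 3 weeks were 1 and 9 for the immediate early list and 9 and 2 for NF-kB. They were 1 and 0 for chaperones, 1 and 3 for upstream genes and 3 and 5 for the members. Over all genes, 1251 were higher and 806 lower without that library, in place of 2006 and 1771. In the treatment arm, 3 of the 39 immediate early genes were higher under PLX5622, namely Bhlhe40 (1.82 ± 0.32, adjusted p = 0.022), Trib1 (1.30 ± 0.25, adjusted p = 0.033) and Errfi1 (0.81 ± 0.17, adjusted p = 0.046), a transcriptional repressor, a pseudokinase and an inhibitor of EGF receptor signalling. None was lower, and of the other lists 1 NF-kB gene was higher and none of the others passed. Without the 5 libraries high in Fos, 0 of these passed. That fit held PLX5622 replicates 4 and 5 and control replicates 3, 4 and 5. Over all genes it called 11 higher and 7 lower, in place of 82 and 40, so most calls of any kind were lost in it.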

How the data were processed

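RNA of 41 cerebellar microglia samples from mice was measured by RNA-seq of full-length cDNA from sorted cells. Per the submitters' processing notes, reads were checked with FastQC 0.11.4, aligned with STAR 2.5.1b to mm9 and normalized with DESeq2; the annotation and the counting tool are not given in the sources used here. The authors deposited normalized counts, in 1 table, with no correction for gene length (unit: signal). In each library all values were whole multiples of 1 step, to within 7.22e-09, so whole reads were recovered by dividing by it. Reads per library came to 23159093 to 40509603, and replicate mice, not reads, set the precision here. The columns matched to no sample numbered 0.

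Genes at 10 or more normalized counts in at least 3 libraries were fitted with limma 3.58.1 in R 4.3.3 on log2(value + 1), with a variance trend and robust estimation, without a replicate block. Fold changes on this scale understate those of low genes. The time course fit held 31 libraries and 14046 genes, the treatment fit 10 and 12877, and the fit of control against NPC 9w all 41 and 14312. Tests were two-sided and adjusted over all genes of the fit by the Benjamini-Hochberg method, and errors beside log2 changes are SEs. Comparisons that share libraries are not independent of each other. Counts were also tested with edgeR 4.0.16 and DESeq2 1.42.0 on the recovered reads; at 9 weeks edgeR called 1422 genes higher and 1118 lower in NPC mice, against 1574 and 1091 with limma. The script was tested on simulated data.

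The 33 genes and all lists were chosen with earlier results of these data known. All 33 are reported; of each related list up to 3 called genes per comparison with the smallest adjusted p may be named, with Npc1, Tmem119, Itgam, Csf1r and P2ry12. Hist1h1c, Xist and the choroid plexus list were chosen after their values were seen. The labels do not say whether replicate letters or numbers pair mice. At 1 week the deviations of same-lettered NPC and WT libraries from their group means correlated at 0.107 to 0.158 in all 4 pairs. Pairs of different letters were not computed, so this cannot show pairing. A replicate block changed no member's call at 1 week, 0 members passing with and without it. Over all genes it called 82 higher and 58 lower, in place of 123 and 81.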

Additional observations from a re-analysis of the deposited data

Results flagged for a closer look

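In 284 groups of 4 or 5 libraries with a member at 10 or more normalized counts, the highest or lowest library was set against the rest by Dixon's 95% critical value, and 22 values lay beyond it, where chance alone gives about 1 in 20. The 3 libraries of NPC 9w are too few for this, and the division of the treatment arm into 5 high and 5 low libraries cannot be found by it.

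In PLX5622 libraries, replicate 1 stood alone with Egr2 at 163 and Klf6 at 20035 normalized counts, and replicate 3 with Gadd45b at 296. In control libraries, replicate 1 stood alone with Fosl2 at 655 and Klf4 at 325. All 3 are among the libraries high in Fos. Klf6, Klf4 and Fosl2 had PLX5622 replicates 1, 2 and 3 and control replicate 1 as their 4 highest libraries of the treatment arm, and Gadd45b had control replicates 1 and 2 and PLX5622 replicate 3 as its 3 highest.

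In NPC 3w libraries, replicate B was high in Fos (208), Ier3 (248) and Nr4a3 (10.7), replicate D in Klf4 (68.1), and replicate C was low in Tnfaip3 (706). In NPC 6w libraries, replicate B was high in Junb (6349.7) and Nr4a3 (13.8).

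In WT libraries, WT 1w replicate A was low in Atf3 (405), and WT 1w replicate D was high in Ier3 (437) and low in Tnfaip3 (822). WT 3w replicate D was high in Junb (4458), by a small margin. WT 6w replicate C was high in Dusp1 (539), Gadd45b (70.4) and Klf4 (113), and it was also the second highest library of all in the Hsp70 pair. WT 6w replicate D was low in Egr3 (11.9). In WT 9w libraries, replicate A was high in Junb (6926) and replicate D in Fosl2 (346).

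The genotype effect differed between 9 and 3 weeks, by the interaction term of the limma fit, for Dusp1 (log2 difference 3.27, adjusted p = 0.0237) and Nfkbia (1.38, adjusted p = 0.0249). Neither passed without NPC 9w replicate C.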

How the results depend on the processing

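No member's called change turned its direction under the alternatives run, and 31 of 73 called changes passed under all of theirs. Counts of members past the threshold are given as higher or lower in the group named first. Leaving out each replicate in turn, NPC against WT counted 0 to 1 lower at 1 week, 1 to 3 higher and 3 to 7 lower at 3 weeks, 3 to 6 higher and 2 to 3 lower at 6 weeks, and 10 to 15 higher and 1 to 5 lower at 9 weeks. For 3 against 1 week the ranges were 5 to 13 higher and 2 to 6 lower in NPC mice and 7 to 8 higher and 4 to 6 lower in WT mice. For 9 against 3 weeks they were 4 to 12 higher and 0 to 1 lower in NPC mice and 0 to 2 lower in WT mice. The genotype effect counted 0 to 1 lower between 1 and 3 weeks and 0 to 3 higher between 3 and 9 weeks, and PLX5622 against control 1 to 2 higher and 0 to 1 lower. The single lower call at 1 week came without NPC 9w replicate C, an alternative chosen after seeing the data, and the second higher call for PLX5622 came without control replicate 1.

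A fit limited to the groups compared, with fewer libraries behind the spread, gave 1 lower at 1 week, 1 higher at 3 weeks and 2 lower at 9 weeks for NPC against WT. In NPC mice it gave 6 higher and 3 lower for 3 against 1 week and 0 higher for 9 against 3 weeks. Over all genes it called 685 higher and 774 lower in the first of these and 16 and 4 in the second. In WT mice it gave 11 higher and 8 lower for 3 against 1 week and 2 higher and 3 lower for 9 against 3 weeks, and for the genotype effect between 3 and 9 weeks it gave 0. DESeq2 gave 2 lower at 9 weeks, 2 lower in WT mice at 9 against 3 weeks, 1 higher and 1 lower for the effect between 1 and 3 weeks and 8 higher for that between 3 and 9 weeks. A pseudocount of 10 and edgeR each gave 2 lower in WT mice at 9 against 3 weeks and 4 higher for the effect between 3 and 9 weeks, and edgeR gave 0 lower for PLX5622. With no filter there were 7 higher in NPC mice at 3 against 1 week and 0 lower for PLX5622, and with rescaled totals 4 higher in NPC mice at 3 against 1 week. Without both NPC 6w libraries B and C there were 1 higher and 1 lower at 6 weeks, beside 522 and 350 over all genes. In WT mice at 9 against 3 weeks, 2 were lower without them. Without the 5 libraries high in Fos, chosen after seeing the data, there were 0 lower for PLX5622. Over all genes that fit called 11 higher and 7 lower, in place of 82 and 40. The causes were not tested.

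With a replicate block the genotype effect between 3 and 9 weeks counted 0 higher, in place of 2, and PLX5622 against control 3 higher, in place of 1. Outside 1 week, pairs of the same letter or number correlated at -0.112 to 0.145 at 3 weeks and -0.212 to 0.0518 at 6 weeks. They correlated at -0.00655 to 0.0755 at 9 weeks and -0.114 to 0.213 in the treatment arm. Other pairs were not computed, so these values cannot show whether letters or numbers pair mice. In both groups of the treatment arm, replicates 1 and 2 were high in Fos and replicates 4 and 5 low. Replicate 3 was high under PLX5622 only. Over all genes the block there called 264 higher and 152 lower, in place of 82 and 40. The reason was not tested. With 3 to 5 mice a group and a bimodal spread in the groups of 9 weeks, small changes of the genes that divide the libraries were not detectable, whatever the depth.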
